A study of Mus musculus with 8 samples.

Results

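The genes Ccdc190, Lpp, Ank, Atp8b1, Stk32a and Slc24a2 were selected because several of the Pax6 binding sites assigned to each had a higher signal after knockdown of Paupar. They held 58 of the 26244 sites, and were 6 of the 10195 gene symbols, in the authors' deposited table. The members were chosen by the difference in signal between Paupar KD and control KD. That difference, and the peak summits from the same libraries, are therefore given as a description, with no test.

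Pax6 was mapped by chromatin immunoprecipitation with sequencing (ChIP-seq) in alphaTC1 cells, a mouse line of glucagon-producing pancreatic alpha cells. Cells of both groups had received antisense oligonucleotides, either of scrambled sequence (control KD) or directed at Paupar (Paupar KD). Paupar is a long non-coding RNA from the neighbourhood of the Pax6 gene. The series has 8 libraries, in each group 2 of Pax6 ChIP and 2 of input, and its design text calls the duplicates biological. All come from 1 cell line, the sources used here give no dose or time for the oligonucleotides, and the inputs were not analysed here. The assay gives no RNA level, so neither the alpha-cell markers nor the loss of Paupar was checked.

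Pax6 is a transcription factor with a paired domain and a homeodomain, each able to bind DNA, and islet endocrine cells need it to form and to keep their hormone genes active. Such factors bind at promoters and also in introns and intergenic sequence, where many enhancers lie. The authors assigned each site to the nearest transcript start, so a gene name here stands for nearness and not for regulation of that gene.

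Each site is a window of 100 bp, and its signal is a concentration, the authors' mean over the libraries of a group, read here as a log2 value. A site was called higher or lower after Paupar KD where the authors' false discovery rate (FDR) was below 0.05. A site whose control KD concentration is -0.01, the lowest in the table, is said to be listed at the floor, and no fold is given for it. A summit is the top of a peak called in a single library, and a site counted as having one within 250 bp of its middle. Summit scores are the authors' own. Where concentrations are given as a pair, control KD comes first and Paupar KD next. Coordinates are 1-based on mm10.

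RefSeq start windows (GRCm38.p6, from 250 bases before a transcript start to 50 after it) were matched for 4 of the 6 genes, with 7 windows for Ccdc190, Slc24a2, Ank and Lpp. Atp8b1 and Stk32a were not matched. None of the 7 windows overlapped a listed Pax6 site (0 of 7). The bases upstream of the outermost start are shown for Slc24a2, Ank and Lpp, because the intron sites described below are placed by their distance from these starts. Capitals mark a match to the homeodomain core TAAT on either strand, here in its reverse form at Slc24a2, while the stretches at Ank and Lpp hold none.
Slc24a2, chr4:87230653-87230790, minus strand: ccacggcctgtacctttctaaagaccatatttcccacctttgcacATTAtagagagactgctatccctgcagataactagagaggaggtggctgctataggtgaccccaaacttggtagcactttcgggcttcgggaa
Ank, chr15:27466427-27466676, plus strand: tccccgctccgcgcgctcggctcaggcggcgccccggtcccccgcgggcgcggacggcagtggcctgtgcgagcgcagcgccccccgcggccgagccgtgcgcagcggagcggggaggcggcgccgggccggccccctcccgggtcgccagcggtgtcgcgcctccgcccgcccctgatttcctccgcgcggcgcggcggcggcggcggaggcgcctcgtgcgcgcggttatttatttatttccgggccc
Lpp, chr16:24393100-24393349, plus strand: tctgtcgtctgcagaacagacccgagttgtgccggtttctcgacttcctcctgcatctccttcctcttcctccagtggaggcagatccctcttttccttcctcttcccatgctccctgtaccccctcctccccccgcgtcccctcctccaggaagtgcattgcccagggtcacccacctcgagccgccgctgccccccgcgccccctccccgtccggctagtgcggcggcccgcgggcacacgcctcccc
The stretch at Ank was 81.2% G and C, that at Lpp 67.6% and that at Slc24a2 49.3%.

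The 7 windows of 300 bases were searched on both strands for TTCACGC and TTCATGC, letters from the core of Pax6 paired-domain sites. They were also searched for TAAT and TAATTA, which overlap one another, for TGTTTAC (FoxA factors), TGANTCA (AP-1) and CAGATG (an E-box bound by Neurod1). TAAT was present in 5 of the 7 windows, and in 58.0% of all 32851 RefSeq start windows. TAATTA was present in 1 window, of Slc24a2 (5.29% of all windows), and CAGATG in 1, of Ccdc190 (17.2% of all windows). The others were present in 0 of 7 windows, against 1.26% of all windows for TTCACGC, 2.42% for TTCATGC, 3.65% for TGTTTAC and 7.81% for TGANTCA. These matches are letters in a window and were not tested as binding sites.

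Of the 58 sites of the 6 genes, 20 were higher after Paupar KD, 1 was lower and 37 were not called in the authors' deposited table. The 57 that entered the authors' adjustment thus had 35.1% higher, where the background over all 25234 such sites was 3.39% higher and 0.88% lower per the authors' deposited table; nothing is read from this gap, since the genes were selected on it. The 20 higher sites had median concentrations of 2.06 (control KD) and 5.12 (Paupar KD) in the authors' deposited table. All higher sites of the series, 855 in number, had medians of 2.20 and 5.29 in the authors' deposited table, so those of the 6 genes were of the common size. Of the 20, 6 had control KD values at the floor, against 119 of the 855, in the authors' deposited table. The 37 sites that were not called had medians of 4.34 and 4.41, with 25 above a change of 0 (67.6%) and 12 below it, in the authors' deposited table. Of all sites of the series other than the higher ones 46.7% lay above 0. That difference was not tested, since the genes were selected on this contrast.

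**Figure D1:**
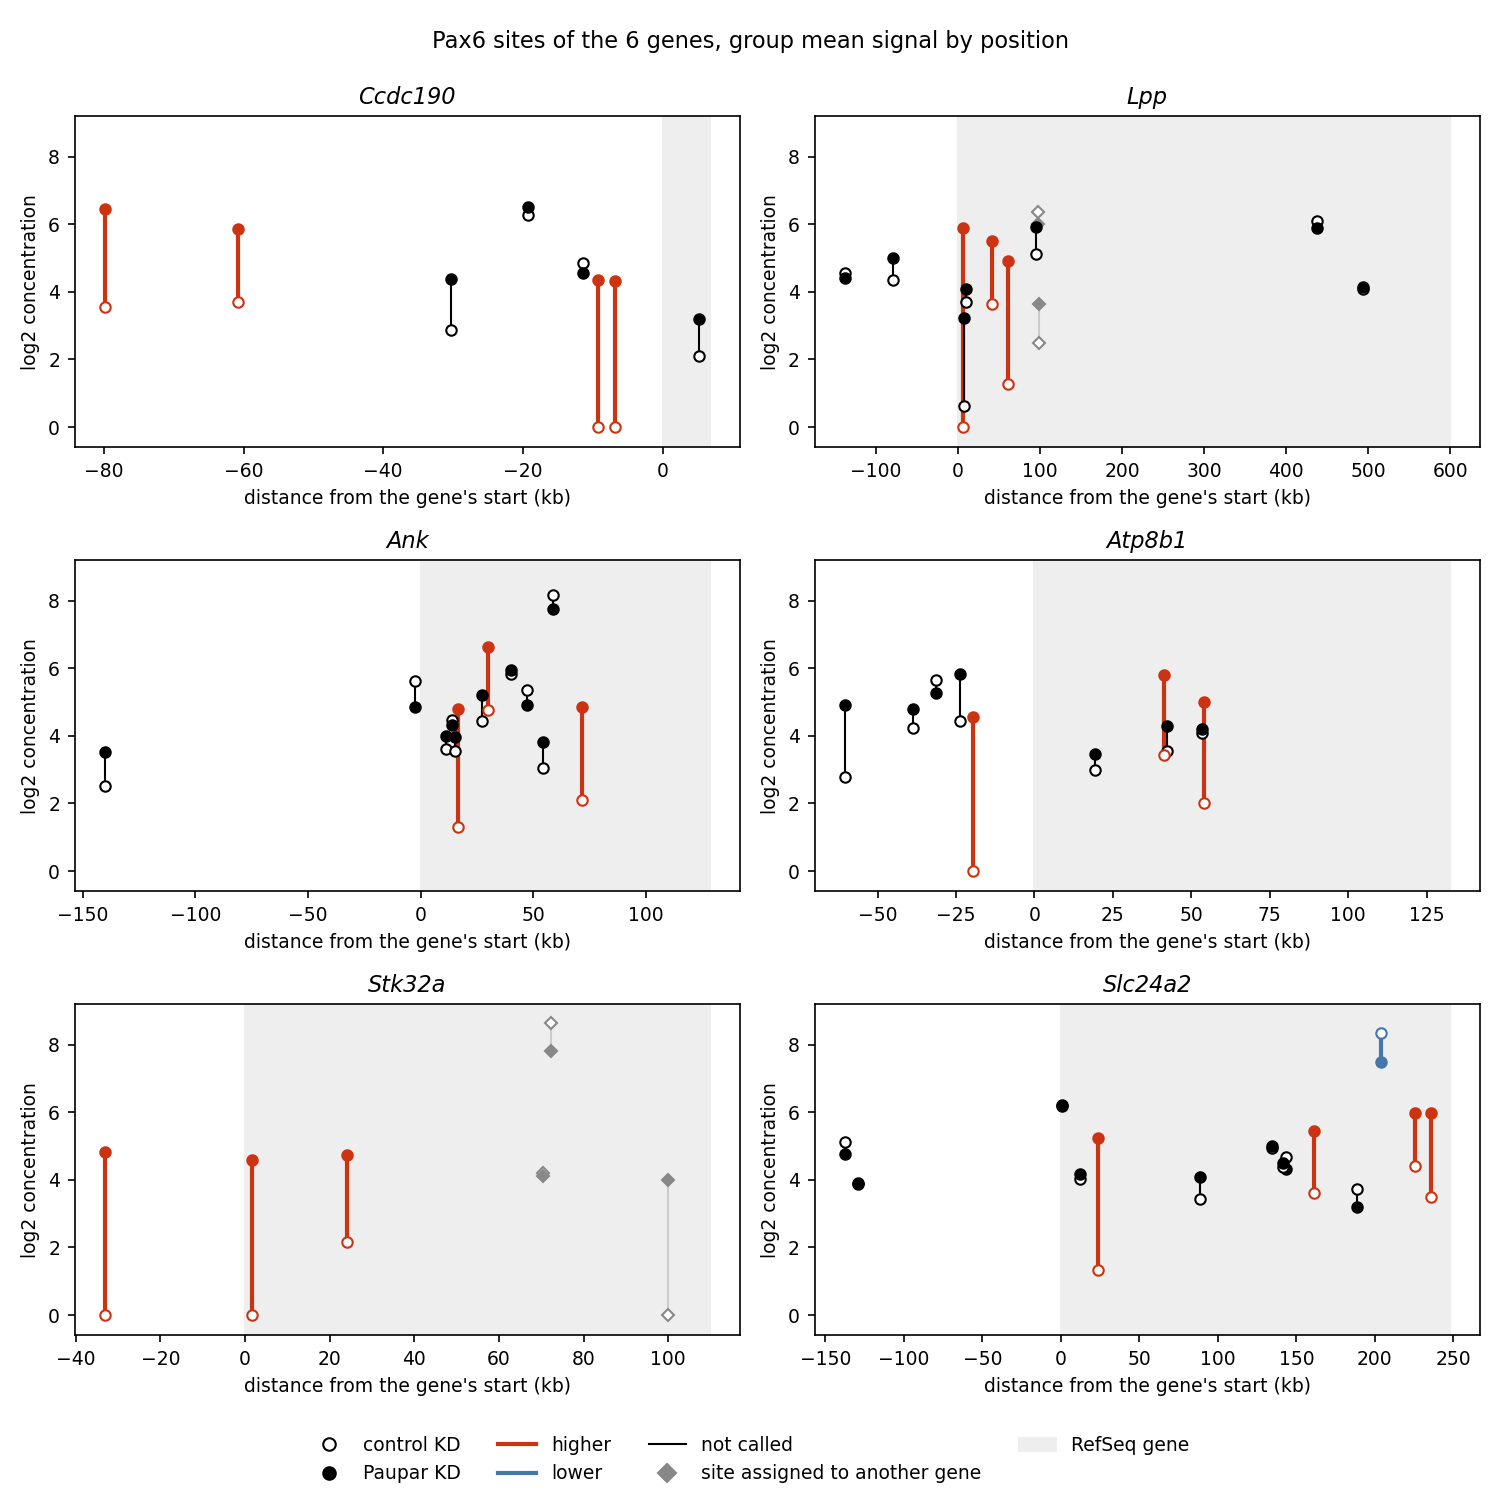
Each panel shows the Pax6 sites of 1 gene by distance from its RefSeq start (kb, negative upstream; grey band, the gene) against the group mean log2 concentration (open circles, control KD; filled circles, Paupar KD). Red marks the 20 higher sites, blue the 1 lower site, black the 37 sites not called, and grey diamonds the sites inside the gene that the authors assigned to another gene. The higher sites of Slc24a2, Ank and Lpp lie inside the gene, while those of Ccdc190 all lie upstream of it.

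Slc24a2 encodes NCKX2, a potassium-dependent sodium and calcium exchanger that moves calcium out of excitable cells. RefSeq places it on the minus strand at chr4:86983124-87230652, over 248 kb. It had 14 listed sites, 12 of them inside the gene, with 4 higher and 1 lower, per the authors' deposited table. The higher site nearest its start, in intron 2 of 10 and 23.5 kb into the gene (chr4:87207103-87207202), had 1.34 (control KD) and 5.25 (Paupar KD, FDR 0.00123) per the authors' deposited table. Its summits scored 22.2 and 12.6 in Paupar KD replicates 1 and 2, with none in either control KD library. The site in intron 4 (chr4:87069129-87069228), 161 kb in, had 3.62 and 5.44 (FDR 0.0477) per the authors' deposited table. There a summit was also called in control KD replicate 1, with a score of 9.4 against 19.1 and 20.9 in the Paupar KD libraries.

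The remaining pair of higher sites lay near the far end of Slc24a2. In intron 8 (chr4:87004766-87004865) the concentrations were 4.40 and 5.99 (FDR 0.0488) per the authors' deposited table, with summits of 26.4 in control KD replicate 1 and 36.4 and 27.9 in Paupar KD. In intron 10, the last (chr4:86995153-86995252), they were 3.50 and 5.99 (FDR 0.000344) per the authors' deposited table, with summits of 39.8 and 46.0 in Paupar KD and none in control KD. Both had the same concentration after Paupar KD from different control KD levels.

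Between these higher sites lay the strongest site of Slc24a2, in intron 7 (chr4:87026931-87027030), which moved the other way. It fell from 8.33 to 7.49, which is -0.84 on the log2 scale (FDR 0.0174), per the authors' deposited table. Its summits scored 166.7 and 70.9 in control KD and 76.7 and 126.8 in Paupar KD, so the summit scores of the groups overlapped. The mean of this site over all libraries was 7.97. Most sites of the series with a mean from 7.75 to 8.0 also had a change below 0, 40 of them between -0.75 and -0.5, and few lay above 0. This site was 1 of 8 between -1.0 and -0.75, and few had a larger fall. A change below 0 was thus not particular to this site, but its fall was larger than that of most sites of this mean. At the promoter, 0.968 kb inside the gene (chr4:87229634-87229733), the site had 6.21 and 6.18 (FDR 0.981) per the authors' deposited table. A summit was called there in Paupar KD replicate 1 alone, with a score of 8.3. The 9 sites not called, this one included, ranged from 3.43 to 6.21 in control KD and from 3.20 to 6.18 in Paupar KD, with changes of -0.54 to 0.67, in the authors' deposited table.

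Ank encodes the progressive ankylosis protein, a membrane protein that lets cells export ATP, citrate and pyrophosphate and so restrains mineral deposition. RefSeq places it on the plus strand at chr15:27466677-27594909. Of its 13 listed sites 3 were higher, and all 3 lay in intron 1 of 11, in the authors' deposited table. The strongest of these, 29.7 kb into the gene (chr15:27496319-27496418), went from 4.76 to 6.64 (FDR 0.000259) per the authors' deposited table. Its summits scored 41.1 in control KD replicate 1, 105.4 in Paupar KD replicate 1 and 81.9 in Paupar KD replicate 2, with none in control KD replicate 2. The control KD libraries thus differed from each other at this site.

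The other two higher Ank sites were low in control KD. The site 16.7 kb into the gene (chr15:27483331-27483430) had 1.30 and 4.80 (FDR 0.0177), and the site 71.5 kb in (chr15:27538084-27538183) had 2.11 and 4.84 (FDR 0.0300) per the authors' deposited table. Summit scores were 9.7 and 4.4 at the first and 9.6 and 8.8 at the second in the Paupar KD libraries, with none in control KD.

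Intron 1 of Ank held 10 of its 13 sites, and the 7 of them that were not called included the strongest of the gene. That site, 58.6 kb in (chr15:27525196-27525295), had 8.16 and 7.75 (FDR 0.339) per the authors' deposited table. It had summits in all 4 libraries, with scores of 208.7 and 103.2 in control KD and 138.7 and 112.0 in Paupar KD. Ank's promoter site, 2.61 kb before the start (chr15:27464016-27464115), had 5.61 and 4.86 (FDR 0.405) per the authors' deposited table, with a summit of 11.7 in control KD replicate 1 alone. The 10 sites of Ank that were not called had changes of -0.75 to 0.99, 6 above 0 and 4 below, in the authors' deposited table.

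Atp8b1 encodes a phospholipid flippase, a P4-ATPase that moves lipids to the inner face of the plasma membrane, and its loss in people causes intrahepatic cholestasis. RefSeq places it on the minus strand at chr18:64528979-64661272. Of its 10 listed sites 5 lay in intron 1 of 27 and 5 upstream, with 3 higher, per the authors' deposited table. In intron 1, 41.4 kb into the gene (chr18:64619832-64619931), the signal went from 3.43 to 5.80 (FDR 0.00233) per the authors' deposited table. Summits there scored 25.1 and 22.9 in the Paupar KD libraries. Deeper in the same intron, 54.1 kb in (chr18:64607118-64607217), it went from 2.02 to 4.99 (FDR 0.0176) per the authors' deposited table, with summits of 26.4 and 7.0 in Paupar KD. Neither of these sites had a control KD summit.

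The third higher Atp8b1 site, 19.5 kb upstream (chr18:64680763-64680862), was listed at the control KD floor (-0.01), against 4.57 after Paupar KD (FDR 0.0194) per the authors' deposited table. Only Paupar KD replicate 1 had a summit there, scoring 15. Upstream of the gene also lay the member site just outside the threshold (chr18:64685033-64685132), with 4.43 and 5.83 (FDR 0.0614), while the member site just inside it was that of Slc24a2 intron 8 (4.40 and 5.99, FDR 0.0488), in the authors' deposited table. These 2 sites had nearly equal concentrations on either side of the call. The site with the highest control KD level at Atp8b1 (chr18:64692540-64692639) had 5.66 and 5.26 (FDR 0.708) per the authors' deposited table. The site at 60.5 kb upstream (chr18:64721687-64721786) had 2.77 and 4.90 but an FDR of 0.550 per the authors' deposited table, and it had no summit in any library.

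Stk32a encodes a serine/threonine kinase of the YANK family, whose function is little known. RefSeq places it on the plus strand at chr18:43207697-43317481. It had 3 listed sites and all 3 were higher per the authors' deposited table. The promoter site, 1.58 kb into the gene (chr18:43209229-43209328), was listed at the control KD floor (-0.01), against 4.59 after Paupar KD (FDR 0.0152) per the authors' deposited table. It was the 1 higher promoter site among the 20. Its summits scored 6.9 and 4.6 in the Paupar KD libraries, low among the called sites.

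The site 33.1 kb upstream of Stk32a (chr18:43174563-43174662) was also listed at the floor in control KD (-0.01), against 4.82 after Paupar KD (FDR 0.00639), per the authors' deposited table. A summit was called there only in Paupar KD replicate 2, with a score of 10.1. In intron 2 of 12 (chr18:43231664-43231763) the concentrations were 2.15 and 4.74 (FDR 0.0399) per the authors' deposited table. Summits there scored 9.6 and 17.8 in Paupar KD, and no control KD library had one at any of the 3 sites.

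The Stk32a gene held 3 more listed sites that the authors assigned to Dpysl3, a gene of a cytoskeletal regulator. With these, 5 sites lay inside Stk32a, 2 of them higher and 1 lower, per the authors' deposited table. The lower one, 72.2 kb from the start of Stk32a and 65.6 kb from an annotated start of Dpysl3 (chr18:43279842-43279941), fell from 8.65 to 7.81 (FDR 0.0104) per the authors' deposited table, with summits in all 4 libraries. Most sites of the series with so strong a signal had a change below 0. Another site assigned to Dpysl3 (chr18:43307631-43307730) was listed at the control KD floor (-0.01), against 3.98 after Paupar KD, with its FDR at 0.0843, per the authors' deposited table. That all sites of Stk32a were higher thus held for the authors' assignment and not for all sites inside the gene.

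Lpp encodes a LIM-domain protein of the zyxin family, found at focal adhesions and cell contacts. RefSeq places it on the plus strand at chr16:24393350-24992578, the longest of the 6 genes at 599 kb. Of its 10 listed sites 3 were higher, in introns 1 and 2 of 6, in the authors' deposited table. The site nearest the start, 5.57 kb into the gene (chr16:24398874-24398973), was listed at the control KD floor (-0.01), against 5.89 after Paupar KD (FDR 6.06e-05) per the authors' deposited table. Its summits scored 41.3 and 29.8 in the Paupar KD libraries, with none in control KD, and it was the strongest in Paupar KD of the 6 member sites listed at the floor.

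Further into Lpp, the site 41.8 kb in (chr16:24435103-24435202) had 3.65 and 5.51 (FDR 0.0305) per the authors' deposited table. It was the 1 higher site of the 20 with a summit in all 4 libraries, with scores of 7.4 and 10.2 in control KD and 22.2 and 16.6 in Paupar KD. Both Paupar KD scores lay above both control KD scores. The site 61.3 kb in (chr16:24454580-24454679) had 1.26 and 4.92 (FDR 0.0106) per the authors' deposited table, with summits of 20.8 and 4.6 in Paupar KD alone. Lpp has further annotated starts, and these sites lay 12.9 kb before and 6.49 kb after the nearest of them.

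Of the 7 Lpp sites not called, 1 (chr16:24400020-24400119) had 0.61 and 3.23 and a p-value of 0.0559 but lay outside the authors' adjustment, with an FDR listed as 1, in the authors' deposited table. The site with the highest control KD level, 438 kb in (chr16:24831209-24831308), had 6.10 and 5.90 (FDR 0.840) per the authors' deposited table and a summit in every library. Of its sites, 2 lay before its RefSeq start, by 138 and 79.5 kb, in introns of other annotated transcripts, and neither was called in the authors' deposited table. Also inside Lpp lay 2 sites assigned to the pseudogene Morf4l1-ps1, with 6.35 and 6.01 (FDR 0.708) at one and 2.50 and 3.63 (FDR 0.653) at the other per the authors' deposited table.

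Ccdc190 encodes a coiled-coil protein of little known function. RefSeq places it on the plus strand at chr1:169928599-169935318, the shortest of the 6 genes at 6.72 kb. Of its 8 listed sites 7 were distal intergenic and lay upstream, and 4 of those were higher, per the authors' deposited table. The farthest, 79.8 kb before the start (chr1:169848711-169848810), had 3.54 and 6.46 and the lowest FDR of the 58 sites, 1.25e-06, in the authors' deposited table. Its summits scored 47.8 and 45.2 in the Paupar KD libraries and it had none in control KD. The site 60.8 kb before the start (chr1:169867769-169867868) had 3.69 and 5.86 (FDR 0.00285) per the authors' deposited table, with summits of 23.0 and 23.1. At both sites the Paupar KD libraries had nearly equal scores.

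The nearer pair of higher Ccdc190 sites rested on less. Those 9.24 kb (chr1:169919310-169919409) and 6.78 kb (chr1:169921765-169921864) before the start were both at the control KD floor (-0.01), against 4.36 (FDR 0.0303) and 4.33 (FDR 0.0332) after Paupar KD per the authors' deposited table. For each a summit was called only in Paupar KD replicate 1, with scores of 10.8 and 10.4. Between the far and the near pair, 19.3 kb before the start, lay the strongest site (chr1:169909210-169909309), with 6.28 and 6.50 (FDR 0.808) per the authors' deposited table and scores of 40.0, 49.4, 54.8 and 55.7 in the 4 libraries. The 1 site inside the gene, in an exon, had 2.11 and 3.20 (FDR 0.709) per the authors' deposited table.

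In each gene the site with the most control KD signal was read apart from the others. At 4 of the 6 genes its change was below 0, among them Slc24a2, where it was called lower, and at Stk32a it was called higher, per the authors' deposited table. Picking the site by its control KD level favours a fall, and sites with a high mean over all libraries also lay mostly below 0 in the series. Which of these bears on the top sites was not tested. In the 2974 genes with at least 3 sites the top site was below 0 in 77.3%, higher in 1.58%, and lower in 85 genes, in the authors' deposited table. Over all 58 sites the median log2 change was 0.74, against -0.03 over all sites of the series, in the authors' deposited table. Of the 58, 77.6% had a change above 0, against 48.5% of all sites, in the authors' deposited table. By gene, the median change over all its sites ran from 0.08 at Slc24a2 through 0.40 at Ank, 0.73 at Lpp and 1.07 at Atp8b1 to 1.83 at Ccdc190 in the authors' deposited table. No median is given for Stk32a, where 2 of the 3 sites are at the floor. The medians of Ccdc190, Lpp and Atp8b1 also count sites at the floor, whose difference depends on the floor itself.

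**Figure D2:**
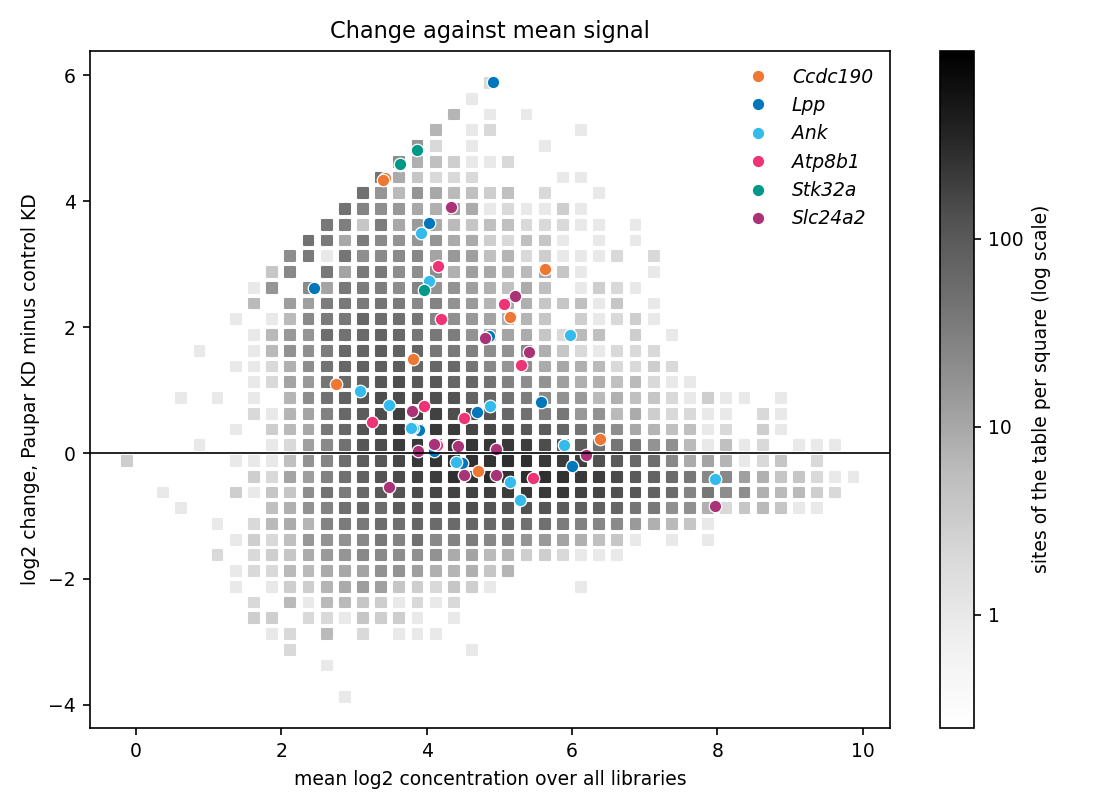
The log2 change (Paupar KD minus control KD, vertical axis) is plotted against the mean log2 concentration over all libraries (horizontal axis) for the 58 sites, coloured by gene, over all sites of the table as grey squares shaded by number on a log scale. Members reach the upper edge, formed by sites at the floor in control KD. The strongest sites of Ank and Slc24a2, at a mean of 7.97 each, lie below 0, as do most sites of the table near that mean.

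By position the 58 sites had few promoters. Promoters held 5.17% of them, against 27.5% of all sites, and first introns 32.8% against 12.7%, in the authors' deposited table. Later introns held 31.0% against 24.1%, distal intergenic sequence 27.6% against 28.9% and exons 3.45% against 3.46% in the authors' deposited table. The 19 first-intron sites came from 3 genes, with 10 from Ank, 5 from Atp8b1 and 4 from Lpp. The 20 higher sites comprised 7 in first introns, 6 in later introns, 6 in distal intergenic sequence and 1 in a promoter in the authors' deposited table. Those classes thus held 35%, 30%, 30% and 5% of them. Among all higher sites of the series the shares were 13.5%, 29.5%, 38.8% and 13.2%, in the same order, per the authors' deposited table. Within 10 kb of the nearest annotated transcript start lay 12 of the 58 sites (20.7%), against 46.4% of all sites, and the median distance was 29.9 kb against 11.8 kb, in the authors' deposited table. Among higher sites alone the share was 30% in the 6 genes and 29.9% in the series, per the authors' deposited table. The median distances of these were 20.2 kb and 23.1 kb, per the authors' deposited table. The higher sites of the 6 genes thus lay about as near a start as higher sites of the series. Sites of a gene share that gene's length and structure, so these shares rest on 6 genes and not on 58 separate cases.

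The summit lists give each library separately. Among the 20 higher sites, a summit was called in Paupar KD replicate 1 at 19 (95%) and in Paupar KD replicate 2 at 17 (85%). In control KD a summit was called at 4 (20%) in replicate 1 and at 1 (5%) in replicate 2. Over all higher sites of the series the shares were 94.9%, 74.7%, 21.2% and 12.3%, in the same order. Both libraries of Paupar KD, and neither of control KD, had a summit at 12 of the 20 (60%), against 48.8% of all higher sites of the series. Over all 58 sites this pattern held at 12 (20.7%), against 8.25% of the 26244 sites, and a summit in at least 1 Paupar KD library and in no control KD library was found at 27 (46.6%) against 37.8%. The reverse, a control KD summit without a Paupar KD summit, was found at 4 of the 58 (6.90%) against 15.8% of all sites. Every library had a summit at 10 sites (17.2%, against 20% of all sites) and no library at 3 (5.17%, against 3.56%).

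Of the 20 higher sites 4 had a summit in only 1 library, namely the near pair at Ccdc190 and the upstream sites of Atp8b1 and Stk32a described above. A summit in both Paupar KD libraries was present at 16, which left Ccdc190, Atp8b1 and Stk32a with 2 such sites each, Lpp and Ank with 3 and Slc24a2 with 4. The lists differ in length, at 14311 and 9983 summits for control KD against 15611 and 17942 for Paupar KD. With each list cut to its 9983 highest-scoring summits, the count with a summit in both libraries of Paupar KD and neither of control KD was 8 in place of 12, and that with any Paupar KD but no control KD summit was 20 in place of 27. Inside the 6 gene spans the lists held 18 and 16 summits in control KD and 33 and 34 in Paupar KD. The Paupar KD counts of both libraries lay above both control KD counts, as the choice of the genes favours.

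**Figure D3:**
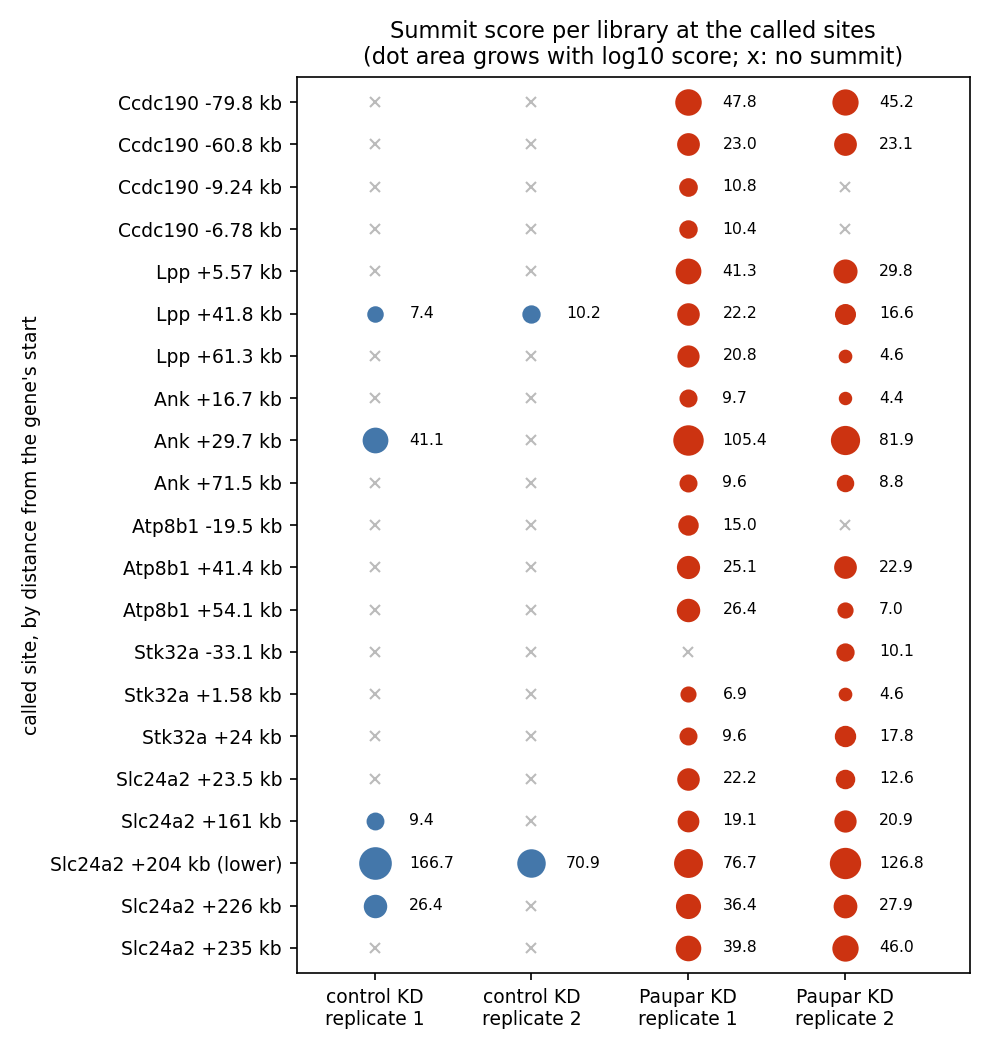
Rows are the 21 called sites, by gene and distance from its start (kb), and columns the 4 Pax6 ChIP libraries; dot area grows with the log10 of the summit score, printed beside it, and a cross marks no summit within 250 bp. The control KD columns are mostly crosses, and the lower Slc24a2 site has summits of 70.9 to 166.7 in all 4 libraries.

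Sites assigned to other genes within 200 kb of a higher site of the 6 genes numbered 25, of which 23 entered the authors' adjustment. Of these, 4 were higher (17.4%, with 3.39% over all sites) and 1, the Dpysl3 site above, was lower (0.88% over all sites) per the authors' deposited table. These sites were found through their nearness to higher sites, and the difference in share was not tested. Next to Ccdc190, 2 promoter sites of Rgs4, a regulator of G-protein signalling, had 1.04 and 4.84 (FDR 0.0228) at one and the floor (-0.01) and 4.16 (FDR 0.0446) at the other per the authors' deposited table. Otulin, a deubiquitinase gene beside Ank, had an intron site with 0.61 and 4.62 (FDR 0.0164) per the authors' deposited table. Nedd4l, a ubiquitin ligase gene beside Atp8b1, had a distal site with 0.55 and 4.37 (FDR 0.0388) per the authors' deposited table. Each of these 4 had its summit only in Paupar KD replicate 1, unlike most higher sites of the 6 genes.

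Several higher sites at a gene were rare over the table. Of its genes, 9442 had 0 higher sites, 675 had 1, 57 had 2, 18 had 3 and 3 had 4, in the authors' deposited table. Those with 4 were Ccdc190, Slc24a2 and Foxp1, a forkhead factor gene with 29 sites in all, in the authors' deposited table. The number of listed sites bears on this count, since 9 of the 155 genes with at least 14 sites had 3 or more higher sites, against 21 of the 2974 with at least 3, in the authors' deposited table. Stk32a, with 3 of 3, had the largest share of higher sites among those 21 genes in the authors' deposited table.

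By the number of higher sites, 15 other genes were like the members, with at least 3 each. After Foxp1 came Gm10400 and Prlr, the prolactin receptor gene, with 3 of 4 sites higher each, and Gcg, which encodes the glucagon precursor, with 3 of 5, in the authors' deposited table. Pax3, a paired-box factor gene, and Sash1 had 3 of 7, and 4930459C07Rik and Ncoa3, a nuclear receptor coactivator gene, 3 of 9, in the authors' deposited table. Ptprt and Sdk1, both genes of cell adhesion proteins, had 3 of 15, in the authors' deposited table. C530044C16Rik, Ralgapa2, Zfp608, Snd1 and Tox3 had 3 of 19, 21, 27, 34 and 35, and Snd1 also had 3 lower sites, in the authors' deposited table. Slc24a2, Foxp1 and Snd1 were the genes of these 21 with a lower site in the authors' deposited table.

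**Figure D4:**
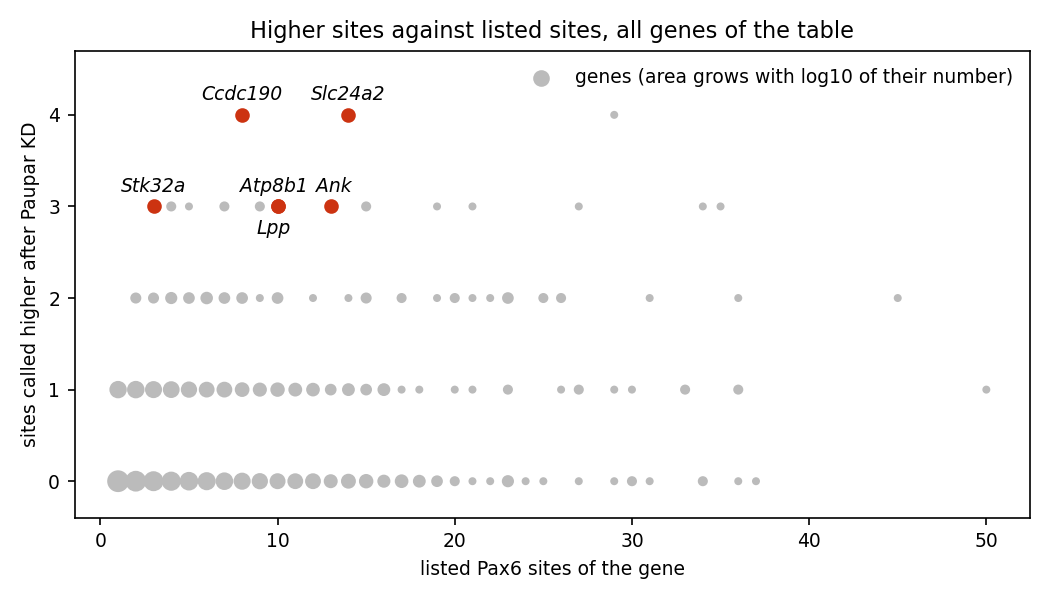
Genes are placed by their listed Pax6 sites (horizontal axis) and the number of those called higher after Paupar KD (vertical axis), with grey dots whose area grows with the log10 of the number of genes and the 6 members in red. Of all genes 21 have 3 or more higher sites, and Stk32a reaches 3 with the fewest listed sites.

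Genes related to the members in function were read from 5 lists, which hold 58 genes, 28 of them with a listed site. Of their 75 sites in the authors' adjustment 3 were higher (4.0%) and 0 lower, with 3.39% higher in the background, in the authors' deposited table. The lists were chosen with earlier results of these data known, that of Abcc6 among them, so nothing is read from these shares. Among flippase genes, kin of Atp8b1, 6 of 16 had a site and 1 of 15 sites was higher, in an exon of Atp10d (chr5:72246914-72247013; 1.04 and 4.66, FDR 0.0260), in the authors' deposited table. Among zyxin-family genes and focal adhesion partners of Lpp, 9 of 13 had a site and 1 of 25 sites was higher, 37.2 kb upstream of Vcl, which encodes vinculin (chr14:20892063-20892162; 2.86 and 5.38, FDR 0.0113), in the authors' deposited table.

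Among genes of phosphate and pyrophosphate handling, the field of Ank, 4 of 11 had a site and 1 of 7 sites was higher per the authors' deposited table. It lay in intron 4 of 30 of Abcc6, a transporter gene needed for ATP release and pyrophosphate formation, and had 5.38 and 7.48 (chr7:46019677-46019776; FDR 6.64e-08), in the authors' deposited table. Sodium and calcium exchanger genes, kin of Slc24a2, had 0 called of 9 sites at 2 of 8 genes, and the kinase list, around Stk32a, 0 of 25 sites at 7 of 10 genes, in the authors' deposited table. Of these list counts, the authors' adjustment held 12 of the 15 flippase sites, 24 of the 25 focal adhesion sites and 7 of the 9 exchanger sites. It held all sites of the phosphate and kinase lists. Median changes over the sites of a list were -0.11 for flippases, 0.20 for focal adhesion, 1.24 for phosphate handling, -0.21 for exchangers and 0.06 for kinases, against -0.03 over all sites, in the authors' deposited table. The count and the median for phosphate handling include Abcc6, whose result was known when the lists were chosen.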

How the data were processed

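Pax6 ChIP-seq was measured in alphaTC1 cells after control KD or Paupar KD, with 2 ChIP libraries per group. The submitters' processing notes name mm10, Bowtie2, MACS2, ChIPseeker and DiffBind; for all of them the version, and for the site table the normalization, the test and the use of inputs, were not given in the sources used here. A table of sites was deposited by the authors with group mean concentrations, read as log2 because the authors' fold equals their difference (within 0.015 at every site). That fold is control KD minus Paupar KD, and the sign was turned here. The p-value and FDR were used as the authors deposited them, and no test was run here, since the table holds group means and the genes were selected on this contrast. At 1010 sites the FDR is listed as 1 outside the adjustment, and 1 blank row was dropped. The authors also deposited a summit list per library, whose score, 2.00 or more in every list, was read as −log10 of a q-value. In the list deposited under control KD replicate 2, the peak names hold a different replicate number; it was used under that sample.

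Gene spans came from RefSeq (GRCm38.p6), used because its primary chromosomes are those of mm10. Sites and summits were joined by position with Python 3.11.15, pandas 2.3.3 and numpy 2.4.6, and the matching was tested on simulated data. No counting interval was computed, because read depth is unknown. The text names the 6 genes with their called and outstanding sites, the called sites of the related lists, the 15 other genes with at least 3 higher sites, and the sites nearest the threshold on each side. The sites not called that are named were chosen after their values were seen. The members and lists were chosen with earlier results of these data known, that of Abcc6 among them. Alternatives changed the FDR threshold, the sites included, the summit distance, the score minimum, the length of the summit lists (each cut to that of the shortest) and the libraries.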

Additional observations from a re-analysis of the deposited data

How the results depend on the processing

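At an FDR below 0.01, 8 sites of the 6 genes were higher (2 each at Ccdc190 and Slc24a2, 1 at each other gene) and 0 lower in the authors' deposited table. The median log2 change was 0.66 over sites in the gene or its promoter, 0.605 without sites at the floor, and 0.55 after subtracting the median of each site's decile of mean concentration. The count of higher sites was 21 at an FDR below 0.1 or a p-value below 0.05, 14 inside genes and promoters, 14 without the floor and 16 where both libraries of Paupar KD had a summit, the last chosen after seeing the data. The shares over all sites at these settings, and at the altered summit settings below, are not given here. These counts therefore only describe the 6 genes. Sites where both libraries of Paupar KD, and neither of control KD, had a summit numbered 12, and those with a Paupar KD but no control KD summit 27. With lists of equal length, each cut to 9983 summits, they numbered 8 and 20, the lowest of the summit settings; the other settings gave 9 to 11 and 21 to 29. Leaving out 1 library at a time gave 19 to 37. The calls were not refitted without a library, since no value per library is held here, and read depth, which limits sites near the floor, is unknown. No paired analysis was possible because the table holds group means and no result comes from a test. Motifs within sites were not searched, since no genome was used here.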

Other observations

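At 4 places a higher site lay within 2 kb of a site of the same gene that was not called. At Atp8b1 the sites were 649 bp apart in one place, with 2.02 and 4.99 at the higher site and 4.09 and 4.21 at its neighbour (FDR 0.958), in the authors' deposited table. In the other Atp8b1 place they were 713 bp apart, with 3.43 and 5.80 at the higher site and 3.56 and 4.30 at its neighbour (FDR 0.671), in the authors' deposited table. The higher and the uncalled site thus had like levels in control KD in the second place and unlike levels in the first. For the neighbours a summit was called only in Paupar KD replicate 1, while both higher sites had one in each Paupar KD library. At Ank a higher site lay 1377 bp from a site with 3.56 and 3.97 (FDR 0.878), and at Lpp the site at the floor lay 1146 bp from one with 0.61 and 3.23, in the authors' deposited table.

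Few summits inside the 6 genes lacked a listed site within 250 bp, at 0 and 2 for the libraries of control KD and 3 and 0 for those of Paupar KD. The highest of them, in Ank, scored 8.8 in Paupar KD replicate 1 and 8.6 in control KD replicate 2.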
